A study of Homo sapiens with 7 samples.

Results

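The 6 keratin genes KRT8, KRT18 and KRT19, which mark luminal breast epithelium, and KRT5, KRT14 and KRT17, which mark the basal layer, were examined in T-47D, an established human luminal breast cancer cell line. Every peak of 6 chromatin immunoprecipitation sequencing (ChIP-seq) peak lists that touched a gene or the 10 kb on either side of it was taken. This gave 33 of the 285703 peaks on chromosomes 1 to 22 and X, 23 of them in the 3 luminal windows and 10 in the 3 basal windows. The lists contributed 8 H3K27ac, 12 H3K4me2, 6 H3K36me3 and 4 H3K27me3 peaks, 2 peaks of the list labelled H2A.Z and 1 peak of the list labelled H3K9me3. The 7 samples are the H3K27ac, H3K4me2, H3K36me3, H3K27me3, H2A.Z and H3K9me3 immunoprecipitates, with 1 library each, and an input library that was not analysed here. All came from T-47D cells in DMEM with 10% FBS, at 70 to 80% confluence in 100 mm dishes, with no treatment named in the labels and no other genotype or time to compare. The antibodies were from Abcam (H2A.Z, H3K27ac and H3K9me3), Cell Signaling (H3K27me3), Active Motif (H3K36me3) and Millipore (H3K4me2).

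Keratins are the intermediate filament proteins of epithelial cells, and each filament needs a type I and a type II keratin. KRT8 (type II) and KRT18 (type I) form the filament pair of simple epithelia such as luminal cells, where KRT19 (type I) is also abundant, whereas KRT5 (type II) and KRT14 (type I) pair in basal and myoepithelial cells and KRT17 (type I) is found in basal cells and in stressed or regenerating epithelium. The type II genes lie together on chromosome 12 and the type I genes on chromosome 17, except KRT18, which sits beside KRT8 on chromosome 12. As background on the marks, H3K27ac and H3K4me2 lie at active promoters and enhancers, H3K36me3 lies over transcribed gene bodies, and H3K27me3 is deposited by the Polycomb machinery over silenced genes. H2A.Z is known from promoters and enhancers and H3K9me3 from heterochromatin. In these data H3K27ac was touched by 24 of 52188 peaks (0.0460%) labelled H2A.Z and by 6213 of 20451 peaks (30.4%) labelled H3K9me3. Both run opposite to that background, so these lists are named by their labels throughout. Whether the 2 labels are exchanged was not tested, and the values of either list at a gene hold for the list under that label.

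The lists hold the position and width of each peak and no height, so a peak is present or absent and can be wide or narrow. With 1 library per mark there is no replicate error and no test between luminal and basal genes was made. Read depth is unknown, and a gene without a peak may carry signal under the calling threshold. Keratin genes have close paralogs and processed pseudogenes, and how reads that map to several copies were treated is not given in the sources used here. As a background, the analysed span of 2772.7 Mb was divided into 110869 tiles of 25 kb, about the length of a window. Tiles are placed without regard to genes, so they show what an average stretch holds rather than an average gene.

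The luminal genes carried H3K36me3 and H3K4me2 and no H3K27me3, while the basal genes had no H3K36me3, KRT5 had H3K27me3 in and around the gene, and KRT14 had 1 narrow H3K27me3 peak upstream. H3K36me3 was present in 3 of 3 luminal windows and 0 of 3 basal windows, against 17.4% of tiles. H3K4me2 was present in 3 luminal windows and in 1 basal window, that of KRT14, against 34.3% of tiles. H3K27me3 was present in 0 luminal windows and 2 basal windows, against 19.6% of tiles. The KRT14 peak carried the second of these, and the basal count was 1 with a flank of 5 kb, with the gene alone and among peaks wider than the list's median. H3K27ac separated the classes less, with 2 luminal windows (KRT8 and KRT18) and 1 basal window (KRT17), against 17% of tiles. With a flank of 20 kb it was 3 luminal windows and 1 basal window. The list labelled H2A.Z had peaks in no luminal window and in the KRT5 window, against 19.5% of tiles. The list labelled H3K9me3 had a peak in the KRT8 window and in no basal window, against 15.2% of tiles. At shares of 15.2% to 19.6% of tiles, a count of 0 in 3 windows is near the background and says little alone. Of the tiles with H3K36me3, 96.7% held no H3K27me3, so the luminal count of 0 for H3K27me3 adds little to the H3K36me3 count.

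**Figure D1:**
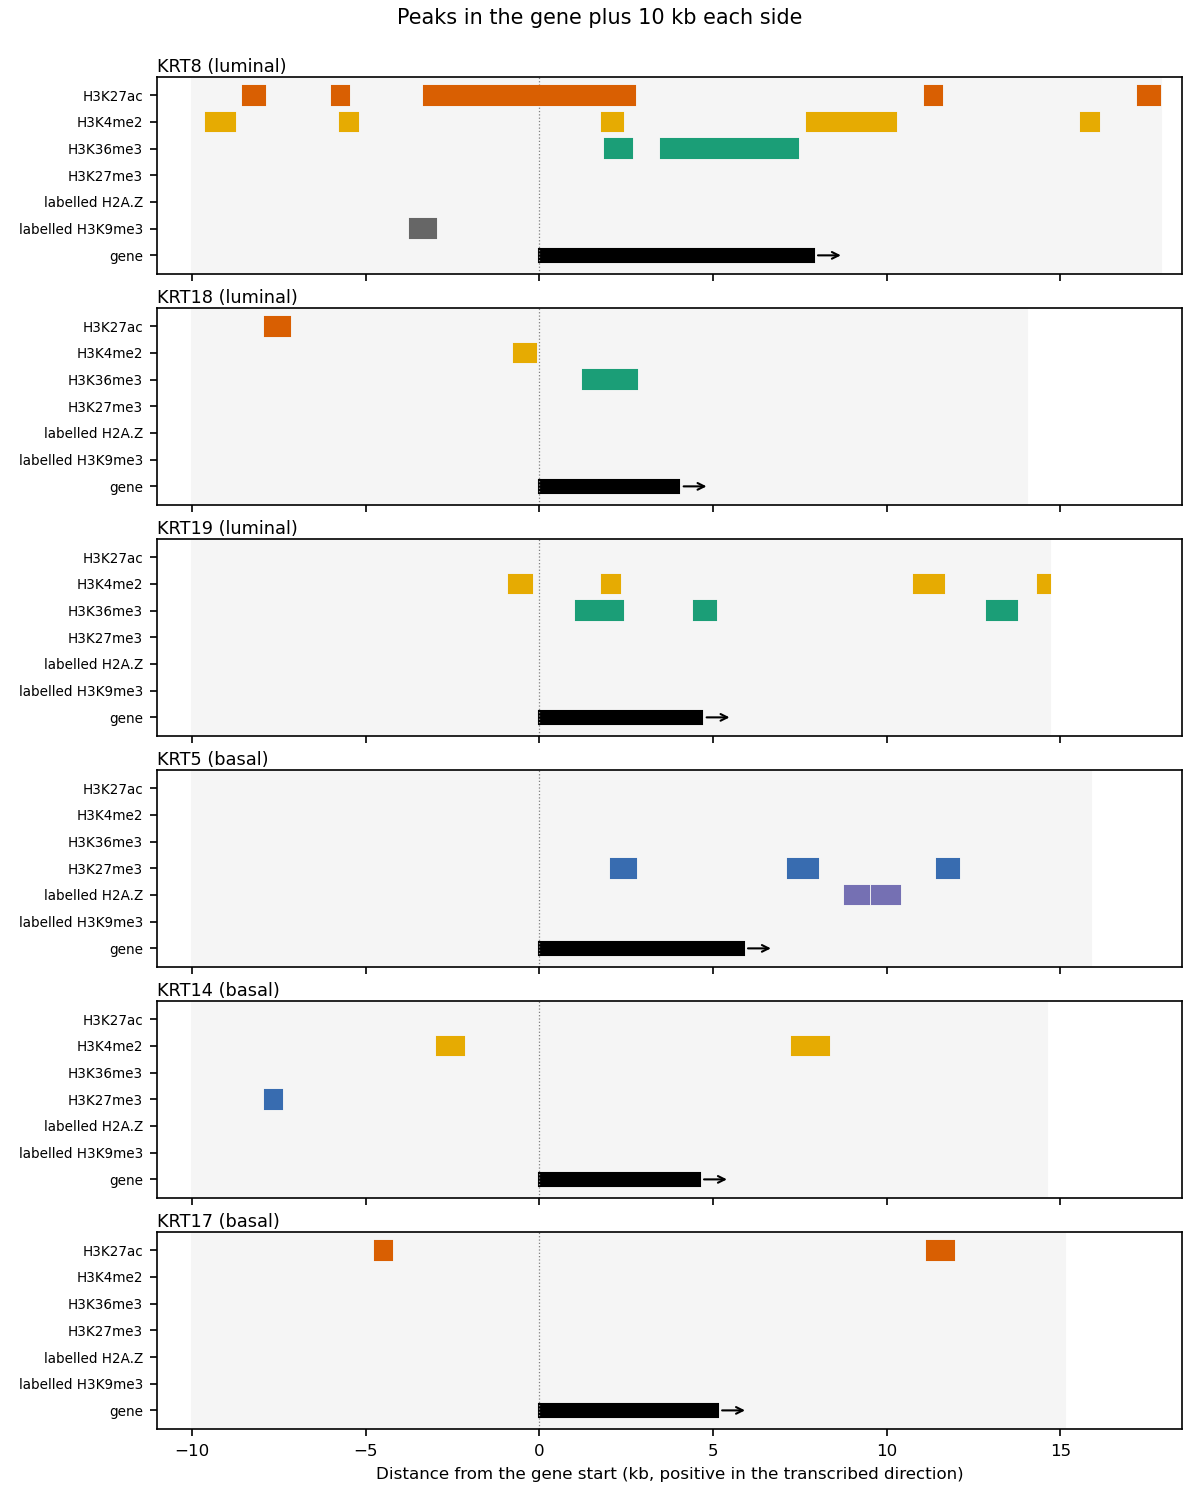
Peaks of each list in the 6 windows, by distance from the gene start in kb, with the 3 luminal genes above the 3 basal genes. The black bar is the gene, the arrow shows the transcribed direction and the grey area is the window. H3K36me3 lies in the 3 luminal genes and in none of the basal genes, and a H3K27ac peak lies over the start of KRT8 alone.

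Together the luminal windows span 76620 bp and the basal windows 75638 bp. H3K36me3 covered 11.9% of the luminal windows and 0% of the basal ones, and inside the genes themselves 47.4% and 0%. H3K27ac covered 11.8% and 1.68% of the luminal and basal windows, H3K4me2 10.5% and 2.41%, and H3K27me3 0% and 3.57%. For scale, these marks covered 3.63% (H3K36me3), 1.29% (H3K27ac), 1.90% (H3K4me2) and 1.75% (H3K27me3) of the analysed span. Of the luminal peaks, 9 of 23 touched the gene, and of the basal peaks 1 of 10 did, which was a H3K27me3 peak in KRT5. The H3K27ac share of the luminal class rested on KRT8, as the values for each gene show.

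**Figure D2:**
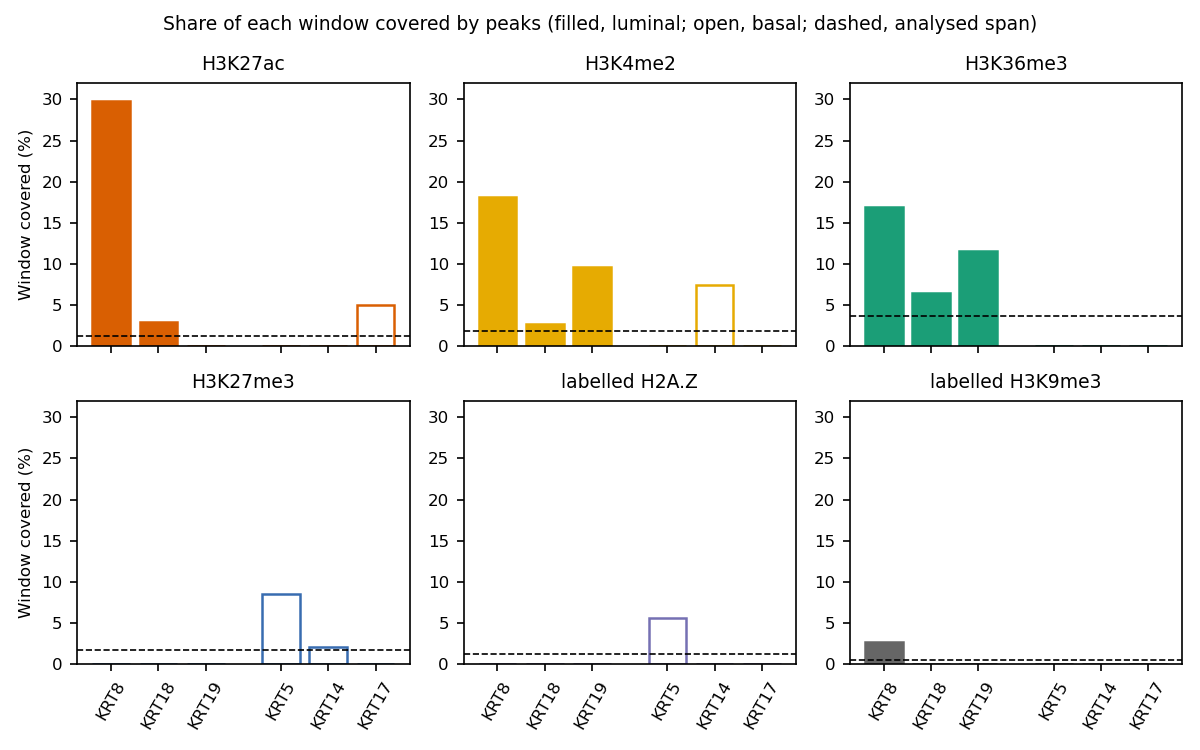
Share of each window covered by peaks of each list, in percent, with luminal genes as filled bars, basal genes as open bars, and the share of the analysed span as a dashed line. KRT8 reaches 29.8% for H3K27ac, whereas KRT19, KRT5 and KRT14 are at 0.

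KRT8 (hg19 chr12:53290971-53298868, minus strand), the type II keratin of simple epithelia, was the most densely marked of the 6 genes, with 13 peaks from 4 lists that covered 60.5% of its window. A H3K27ac peak of 6065 bp (chr12:53296123-53302187) lay over the gene start, from 3319 bp upstream to 2745 bp inside the gene. Of all H3K27ac peaks, 1.09% were at least that wide. The other 4 H3K27ac peaks of the window were 501 to 632 bp wide, 2 upstream and 2 beyond the gene end. In all, H3K27ac covered 29.8% of the window, a share reached by 0.407% of tiles.

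H3K4me2 had 5 peaks in the KRT8 window (18.2% covered, a share reached by 1.08% of tiles), and none lay over the gene start used here. RefSeq gives another KRT8 start, 29.3 kb from the gene end in GRCh38.p14, and the marks at it were not examined. The widest, of 2584 bp, lay across the gene end (chr12:53288591-53291174), and another of 631 bp lay inside the gene from 1787 to 2417 bp after the start. H3K36me3 covered 59.7% of the gene in 2 peaks, of 762 bp (1893 to 2654 bp after the start) and 3950 bp (chr12:53291426-53295375), which reached to 7442 bp after the start of the 7898 bp gene. The smaller H3K36me3 peak lay wholly within the H3K27ac peak, with 762 bp shared, and shared 525 bp with the H3K4me2 peak inside the gene, so that 3 marks met within the gene about 2 kb after its start. The 1 peak of the list labelled H3K9me3 (chr12:53301843-53302601, 759 bp) lay 2975 to 3733 bp upstream, where it shared 345 bp with the upstream end of the H3K27ac peak. This combination of 4 lists, H3K27ac, H3K4me2, H3K36me3 and labelled H3K9me3 without the other 2, was found in 2.38% of tiles.

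KRT18 (chr12:53342655-53346684, plus strand), the type I partner of KRT8, had 3 peaks, 1 from each of 3 lists. A H3K4me2 peak of 646 bp (chr12:53341914-53342559) ended 96 bp before the gene start. A H3K36me3 peak of 1557 bp (chr12:53343915-53345471) lay inside the gene, from 1260 to 2816 bp after the start, and covered 38.6% of it. The nearest H3K27ac peak (chr12:53334746-53335467, 722 bp) lay 7188 bp upstream, so the gene start of KRT18 was without H3K27ac in this list, unlike that of KRT8. None of the 3 peaks overlapped another, and the H3K4me2 and H3K36me3 peaks were 1355 bp apart. H3K27ac, H3K4me2 and H3K36me3 without the other lists were found together in 3.93% of tiles.

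KRT19 (chr17:39679869-39684560, minus strand), a type I keratin of luminal cells, had 4 H3K4me2 and 3 H3K36me3 peaks and no H3K27ac peak. A H3K4me2 peak of 666 bp (chr17:39684786-39685451) ended 226 bp before the gene start. Inside the gene a H3K36me3 peak of 1363 bp (chr17:39682154-39683516) ran from 1044 to 2406 bp after the start and contained a H3K4me2 peak of 501 bp at 1808 to 2308 bp. A H3K36me3 peak of 633 bp lay over the gene end, and H3K36me3 covered 34.1% of the gene in all. The widest H3K4me2 peak of the window (chr17:39665848-39670216, 4369 bp) began 9653 bp beyond the gene end and reached out of the window on the side of KRT15, the next gene in the RefSeq order, and 0.379% of H3K4me2 peaks were at least that wide. The nearest H3K27ac peak lay 16.1 kb from the gene. Of the tiles with both H3K36me3 and H3K4me2, 30.6% (3270 of 10695) also lacked H3K27ac, and 2.42% of all tiles held H3K36me3 and H3K4me2 alone.

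The 3 luminal genes thus shared a H3K36me3 peak that began 1044 to 1893 bp after the start, while their H3K4me2 and H3K27ac differed. KRT18 and KRT19 each had a H3K4me2 peak that ended within 226 bp of the start. KRT8 had none at the start used here, which was covered by H3K27ac. By presence or absence over the 6 lists, KRT18 was alike to KRT8 in 5 lists and to KRT19 in 5, and KRT8 and KRT19 were alike in 4.

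KRT5 (chr12:52908361-52914243, minus strand), the basal type II keratin, had 3 H3K27me3 peaks, 2 peaks of the list labelled H2A.Z and no peak of any other list. One H3K27me3 peak of 711 bp (chr12:52911474-52912184) lay inside the gene, from 2059 to 2769 bp after the start, a distance at which the 3 luminal genes each held part of a H3K36me3 peak. The other 2 H3K27me3 peaks (861 and 630 bp) lay 1274 to 6195 bp beyond the gene end. The peaks of the list labelled H2A.Z (chr12:52903877-52904657 and chr12:52904766-52905446) lay between these 2, with a gap of 780 bp to the nearer one and no shared base. H3K27me3 covered 8.51% of the window, a share reached by 7.30% of tiles. These 2 lists alone were found in 5.80% of tiles, and 49.4% of tiles with H3K27me3 also held the list labelled H2A.Z. The KRT8 and KRT5 windows were opposite in all 6 lists: each list had a peak in the window of 1 of them and none in that of the other. Within the genes themselves, neither had a peak of the lists labelled H2A.Z and H3K9me3, so for these lists the opposition lay in the flanks.

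The peak of any list nearest to the KRT5 start was the H3K27me3 peak 2059 bp inside the gene. Upstream, no H3K27me3 peak lay in the first 20 kb, and 23.3% of the bin 20 to 30 kb upstream was covered. Like the starts of KRT18, KRT19, KRT14 and KRT17, the KRT5 start had no peak of any list over it. The 250 bases before the KRT5 start are shown since no other of the 6 genes had a promoter entry that matched its gene start. They are from RefSeq (GRCh38.p14, chr12:52520395-52520644, minus strand, a build other than that of the peaks), with the CpG dinucleotides in capitals.
KRT5: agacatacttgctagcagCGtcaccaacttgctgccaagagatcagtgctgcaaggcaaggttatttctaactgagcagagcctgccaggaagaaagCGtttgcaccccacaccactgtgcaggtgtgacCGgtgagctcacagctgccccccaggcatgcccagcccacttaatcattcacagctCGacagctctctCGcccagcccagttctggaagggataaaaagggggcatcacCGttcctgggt
The stretch holds 6 CpG, against a median of 11 over 35114 RefSeq promoters of the same length, and 41.1% of them held at most 6. Its GC content was 56.0%, against a median of 58.0%. On both strands it holds neither TATAAA, which 10.7% of the promoters held, nor GGGCGG, the core of a GC box, which 42.6% held. Only these exact strings were sought, so near variants, such as the ATAAAA in this stretch, were not counted. Of the 6 genes, 2 had an entry in this table. That of KRT8 starts 29.3 kb from the gene end, where the KRT8 gene used here is 7.90 kb long, so it belongs to another start and is not shown. KRT18, KRT19, KRT14 and KRT17 are named without a sequence.

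KRT14 (chr17:39738531-39743147, minus strand), the type I partner of KRT5, had 2 H3K4me2 peaks and 1 H3K27me3 peak, and none touched the gene. The H3K4me2 peaks lay 2185 to 2951 bp upstream (chr17:39745332-39746098, 767 bp) and 2660 to 3714 bp beyond the gene end (chr17:39734817-39735871, 1055 bp). The H3K27me3 peak (chr17:39750547-39751047) had a width of 501 bp, the commonest width of that list, and lay 7400 bp upstream. It was 4448 bp from the upstream H3K4me2 peak. H3K4me2 covered 7.40% of the window, within the range of the luminal genes (2.69% to 18.2%). H3K4me2 and H3K27me3 alone were found together in 2.11% of tiles, and 16.6% of the tiles with H3K4me2 also held H3K27me3.

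KRT17 (chr17:39775692-39780829, minus strand), a type I keratin of basal and stressed epithelium, had 2 H3K27ac peaks and no peak of any other list. One of 501 bp (chr17:39785079-39785579) lay 4250 to 4750 bp upstream. The other, of 770 bp (chr17:39768888-39769657), lay 6035 to 6804 bp beyond the gene end, on the side of KRT16, the next gene in the RefSeq order. H3K27ac covered 5.06% of the window, above KRT18 (3.0%) and KRT19 (0%) and below KRT8 (29.8%), so the class labels did not order this mark. Neither peak touched H3K4me2, and 4.12% of tiles with H3K27ac (775 of 18801, or 0.699% of all tiles) likewise held no other list.

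The basal genes were less alike than the luminal ones. KRT14 and KRT5 were alike in 4 of the 6 lists and shared H3K27me3, KRT17 was alike to each of them in 3 lists, and KRT17 shared no list with a peak with either. Across the classes KRT19 and KRT14 were alike in 4 lists, and so were KRT18 and KRT17.

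**Figure D3:**
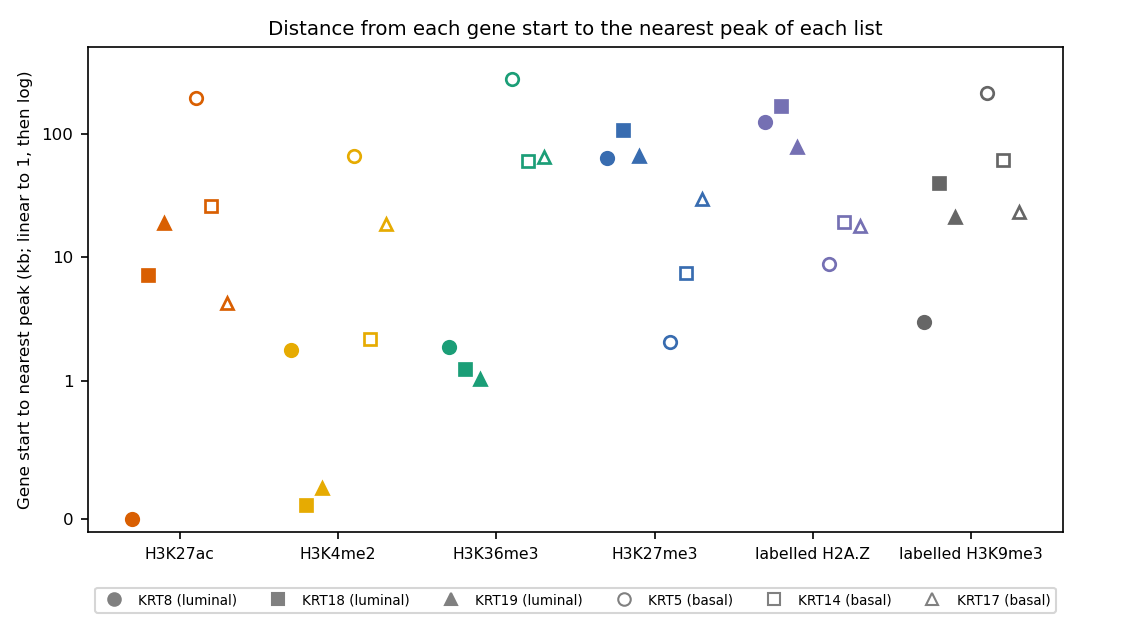
Distance in kb from each gene start to the nearest peak of each list, with filled symbols for luminal and open symbols for basal genes, on an axis that is linear to 1 kb and logarithmic above. The 3 luminal genes lie nearer than the 3 basal genes for H3K4me2 and H3K36me3 and farther for H3K27me3 and the list labelled H2A.Z.

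Distances from the gene start need no window and gave the same contrast for 4 lists. For H3K36me3 and H3K4me2 the nearest luminal peaks were those already counted in the windows, so the distances partly restate those counts. The nearest H3K36me3 peak lay 1.89 kb from the start of KRT8, 1.26 kb from KRT18 and 1.04 kb from KRT19, against 278 kb from KRT5, 59.6 kb from KRT14 and 65.0 kb from KRT17. The nearest H3K4me2 peak lay 1.79, 0.0960 and 0.226 kb from KRT8, KRT18 and KRT19, against 65.5, 2.18 and 18.7 kb from KRT5, KRT14 and KRT17. The classes did not overlap for either mark, although for H3K4me2 KRT8 (1.79 kb from the start used here) and KRT14 (2.18 kb) lay close. Nearest-peak distances of other genes were not computed for any list, so no background stands beside these distances.

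The nearest H3K27me3 peak lay 63.4, 107 and 66.0 kb from KRT8, KRT18 and KRT19, against 2.06, 7.40 and 29.8 kb from KRT5, KRT14 and KRT17. For the list labelled H2A.Z the distances were 123, 167 and 77.9 kb for KRT8, KRT18 and KRT19, and 8.80, 19.3 and 17.8 kb for KRT5, KRT14 and KRT17. Both lists lay nearer to each basal gene than to any luminal gene. On chromosome 17, however, the same single H3K27me3 peak was the nearest to KRT19, KRT14 and KRT17, and a single peak of the list labelled H2A.Z (chr17:39762492-39762992) was likewise the nearest to all 3. On chromosome 12 KRT8 and KRT18 shared their nearest peak of each of these lists too, so these distances are not independent.

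H3K27ac and the list labelled H3K9me3 overlapped between classes. The nearest H3K27ac peak was 0, 7.19 and 19.0 kb from KRT8, KRT18 and KRT19, against 193, 25.7 and 4.25 kb from KRT5, KRT14 and KRT17. For the list labelled H3K9me3 it was 2.98, 40.1 and 21.0 kb from KRT8, KRT18 and KRT19, against 212, 61.1 and 23.4 kb from KRT5, KRT14 and KRT17.

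The surroundings were also compared, first within 50 kb of each gene start. H3K36me3 numbered 3, 3 and 3 peaks around KRT8, KRT18 and KRT19, against 0, 0 and 0 around KRT5, KRT14 and KRT17. The luminal peaks were those of the windows again, with the same 3 peaks around KRT8 and KRT18, so they restate the window result. KRT5 stood apart in H3K27me3. Within 50 kb of its start KRT5 had 28 H3K27me3 peaks that covered 21.9% of the sequence and 10 peaks of the list labelled H2A.Z, and none of H3K27ac, H3K4me2, H3K36me3 or the list labelled H3K9me3. Within the same distance KRT14 and KRT17 had 1 H3K27me3 peak each, the single peak named above, and KRT8, KRT18 and KRT19 had none. The list labelled H2A.Z likewise had 1 peak, the same one, around KRT14 and KRT17 and none around the luminal genes. H3K27ac numbered 13, 11 and 8 peaks around KRT8, KRT18 and KRT19, against 0, 4 and 7 around KRT5, KRT14 and KRT17. H3K4me2 numbered 15, 12 and 11 peaks around KRT8, KRT18 and KRT19, against 0, 6 and 7 around KRT5, KRT14 and KRT17. For both marks each luminal gene thus had more peaks nearby than any basal gene, KRT19 included, which had no H3K27ac in its own window. For H3K27ac this rested on 8 peaks around KRT19 against 7 around KRT17. No background was computed for surroundings of this size, so these counts are description only. These 50 kb surroundings overlap between neighbouring genes, KRT8 and KRT18 among them, so some peaks were counted for more than 1 gene.

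At 200 kb the classes overlapped for all 6 lists. H3K27me3 numbered 22, 15 and 1 peaks around KRT8, KRT18 and KRT19, against 71, 1 and 1 around KRT5, KRT14 and KRT17. In the same order, the list labelled H2A.Z numbered 5, 3 and 1 peaks against 13, 1 and 1. The list labelled H3K9me3 numbered 7, 7 and 7 peaks against 0, 6 and 7. H3K27ac numbered 22, 22 and 30 peaks around KRT8, KRT18 and KRT19, and 1, 35 and 30 around KRT5, KRT14 and KRT17, and H3K36me3 numbered 7, 7 and 4 peaks around KRT8, KRT18 and KRT19, against 0, 7 and 8 around KRT5, KRT14 and KRT17. H3K4me2 numbered 39, 37 and 34 peaks around the luminal genes in that order, against 10, 35 and 36 around the basal ones. The surroundings of KRT8 and KRT18, whose starts are 43.8 kb apart, overlap, and so do those of KRT19, KRT14 and KRT17, with 58.6 kb between KRT19 and KRT14 and 37.7 kb between KRT14 and KRT17.

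**Figure D4:**
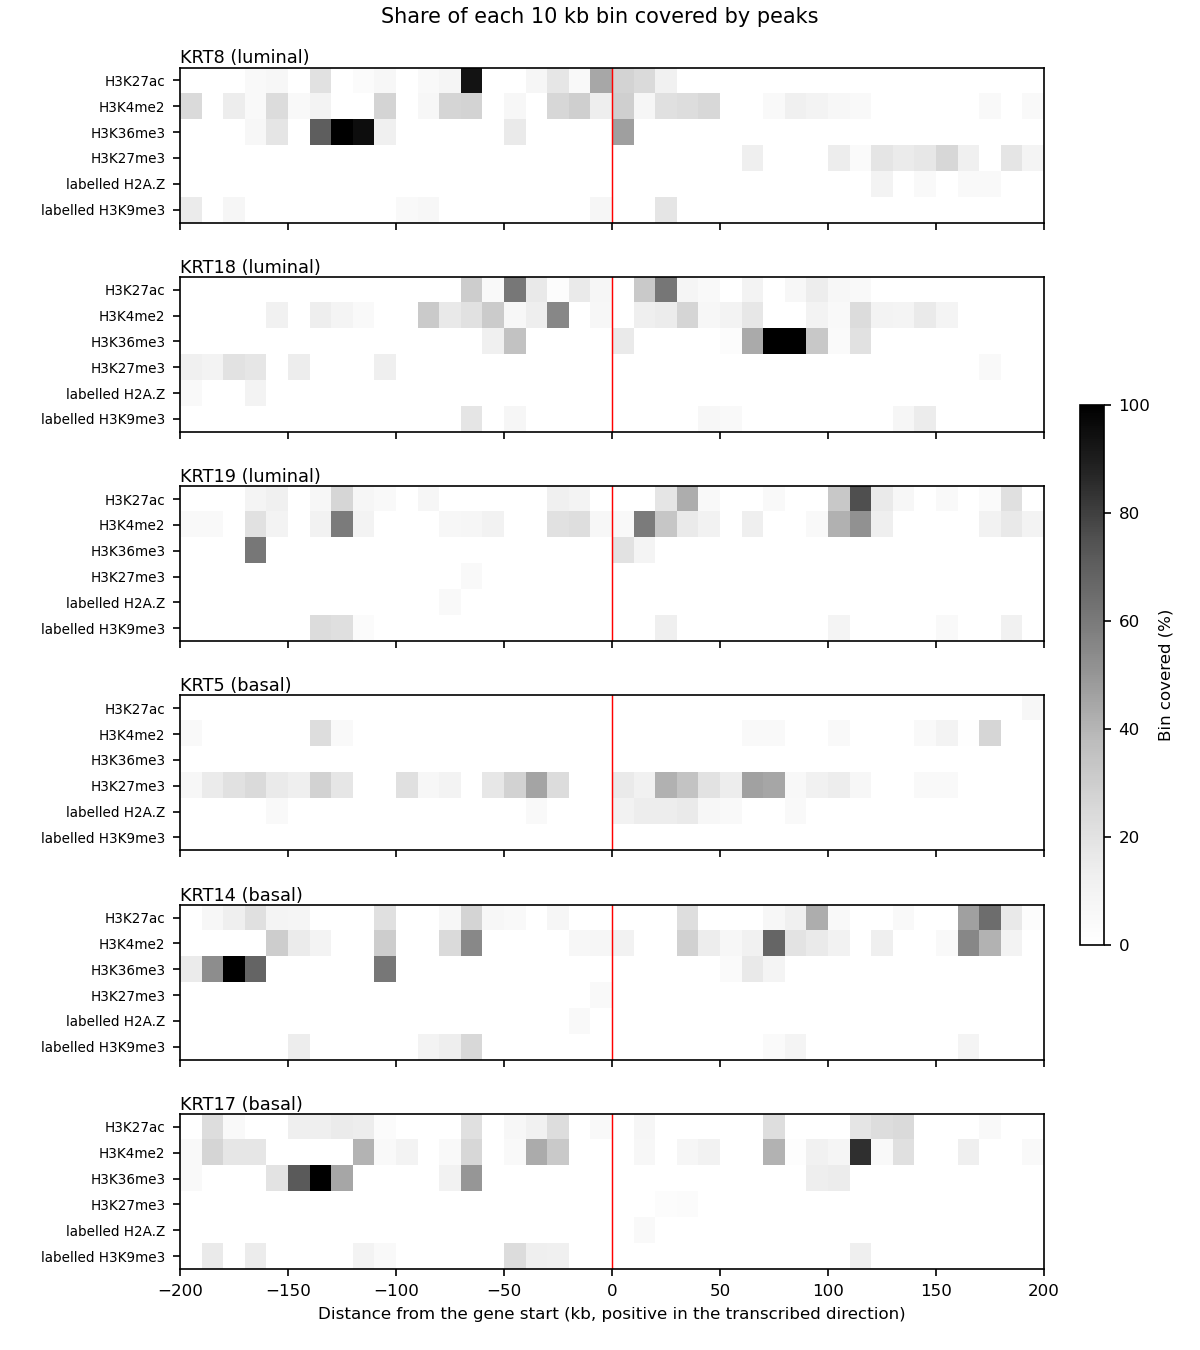
Share of each 10 kb bin covered by peaks of each list, out to 200 kb on either side of each gene start (red line), with luminal genes above basal genes and darker bins more covered. H3K27me3 lies on either side of KRT5 and is nearly absent around the chromosome 17 genes.

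On chromosome 12 the type II gene cluster changed from H3K27me3 near KRT5 to active marks at KRT8. The 357 kb between their windows (chr12:52924244-53280970) held 60 H3K27me3 peaks that covered 11.8% of it, with 17 H3K4me2 peaks (4.06%), 3 H3K27ac peaks (0.678%) and no H3K36me3 peak. The last H3K27me3 peak on this side lay 55.5 kb from KRT8. Between the KRT8 and KRT18 windows (chr12:53308869-53332654, 23.8 kb) there were 4 H3K27ac and 2 H3K4me2 peaks and no peak of any other list. One of these H3K4me2 peaks (chr12:53316840-53321451, 4612 bp) was the widest within 50 kb of either gene, and 0.318% of H3K4me2 peaks were at least that wide. It lay 18.0 to 22.6 kb upstream of the KRT8 start used here. The other RefSeq start of KRT8 is 29.3 kb from the gene end in GRCh38.p14, and the gene used here is 7.90 kb long. That start may therefore lie in this H3K4me2 peak. Positions were not converted between builds, so this was not tested. The widest H3K27ac peak within 50 kb of KRT18 (chr12:53359470-53368771, 9302 bp) lay 16.8 to 26.1 kb downstream of its start and outside its window.

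On chromosome 17 no such change was found between KRT19 and the basal genes. The 34.0 kb between the KRT19 and KRT14 windows (chr17:39694561-39728530) held 2 H3K27ac and 3 H3K4me2 peaks, which covered 6.44% and 12.6% of it. The 12544 bp between the KRT14 and KRT17 windows (chr17:39753148-39765691) held 1 H3K4me2 peak and 1 peak of the list labelled H2A.Z. No H3K36me3 or H3K27me3 peak lay in either stretch. The widest H3K4me2 peak within 50 kb of KRT17 (chr17:39810068-39815103, 5036 bp) lay 29.2 kb upstream of its start, and 0.220% of the list was at least that wide. Copy number in T-47D, an aneuploid line, was not corrected in this comparison of loci.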

How the data were processed

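The deposited files are peak lists, 1 per library, with 4 columns: chromosome, start, end and name. Coordinates are in bp on hg19, and other values of a peak are not used here. The submitters' processing notes name Bowtie2 2.1.0, HOMER 4.2 and the builds hg19 and GRCh37. Not given in the sources used here are what each tool did, how peaks were called and whether the input served. Starts were converted to 1-based coordinates with Python 3.11.15 and numpy 2.4.6. A peak belonged to a window with at least 1 bp of overlap, and covered bp were counted inside the window. Gene positions are hg19 and strands are textbook knowledge. Tiles of 25 kb covered chromosomes 1 to 22 and X, without spans of 1 Mb or more that held no peak of any list. Tile counting was tested on simulated data. The 6 genes, the lists and the descriptions were chosen with earlier results of these data known. All 6 genes are described, with the peak at or nearest to the gene start and the widest peak of each list. Positions of other keratin genes on hg19 were not used here, so the planned list of them was not analysed. RefSeq (GRCh38.p14) gave the order of neighbouring genes and the promoter sequence. No test was made, since each mark has 1 library.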

Additional observations from a re-analysis of the deposited data

How the results depend on the processing

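The number of luminal and of basal genes with a peak was recounted for each of the 6 lists under 5 alternatives, and 48 of 60 recounts stayed within 1.5 times the count reported. H3K36me3 stayed at 3 luminal and 0 basal genes in all 5, and H3K27me3 and the list labelled H2A.Z stayed at 0 luminal genes. A count of 0 could change only with the flank of 20 kb, since the other alternatives keep a part of the same peaks. The 48 include such recounts, whose outcome was fixed in advance. With the gene alone, the luminal count became 1 for H3K27ac, 2 for H3K4me2 (KRT18 had none) and 0 for the list labelled H3K9me3, and the basal counts became 0 for H3K27ac, 0 for H3K4me2, 1 for H3K27me3 and 0 for the list labelled H2A.Z, as fewer bp were searched. With a flank of 5 kb, H3K27ac fell to 1 luminal gene and H3K27me3 to 1 basal gene (KRT5). With a flank of 20 kb, H3K27ac reached 3 luminal genes and stayed at 1 basal gene, the list labelled H3K9me3 reached 2 luminal genes, and H3K4me2 reached 2 and the list labelled H2A.Z 3 basal genes. When peaks no wider than their list's median were dropped, H3K27me3 was left in 1 basal gene, since the KRT14 peak is 501 bp wide. Requiring at least 50% of a peak inside the window changed none of the 12 counts. Merging peaks within 1 kb left the number of peaks as it was in 12 of the 14 windows and lists with a peak, and joined the 2 H3K36me3 peaks of KRT8 and the 2 peaks of the list labelled H2A.Z at KRT5 into 1 each. On chromosomes 12 and 17 alone tiles held peaks more often (25.2% for H3K27ac, 42.2% for H3K4me2, 24.8% for H3K36me3 and 24.8% for H3K27me3). No paired analysis was possible because each mark has 1 library. Depth is unknown, so absence of a peak is not absence of the mark.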
